A study of Homo sapiens with 6 samples.

Results

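The genes described here carry out or control antigen presentation by class I molecules of the major histocompatibility complex (MHC). They are the heavy chain genes HLA-B, HLA-C and HLA-E, the light chain gene B2M, the peptide transporter genes TAP1 and TAP2, the immunoproteasome genes PSMB8 and PSMB9, and NLRC5, a regulator of their transcription. They were taken from the tables by a fixed list of symbols, 9 of 23228 genes. RNA was sequenced from Hep3B, an established human hepatocellular carcinoma cell line, in 3 control libraries and 3 libraries labelled PELP1-KD. Control cells carried a non-targeting short hairpin RNA, and PELP1-KD cells a hairpin RNA against PELP1, a coregulator of transcription. By the labels, PELP1-KD cells were puromycin-selected and used as pooled stable clones. Both groups come from this single line. The titles name the first PELP1 hairpin while the treatment protocol names both, so which was used is uncertain. The labels do not say that replicates came from separate cultures, so the p values measure the spread between these libraries, which may be technical. PELP1 itself had 4893, 4914 and 5102 normalized reads in control replicates 1 to 3. It had 4421, 4825 and 4840 in PELP1-KD replicates 1 to 3, on average 94.5% of control. Its log2 fold change of -0.08 (SE 0.04, n = 3 per group) did not pass the test (edgeR, adjusted p = 0.101), so the groups are called by their labels. The paper reports lower PELP1 protein in Hep3B knockdown cells by Western blot, which these RNA counts do not measure.

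Class I molecules show fragments of a cell's own proteins to CD8+ T cells. The proteasome cuts proteins into peptides, and interferon gamma exchanges 3 of its catalytic subunits for PSMB8, PSMB9 and PSMB10, which form the immunoproteasome. TAP1 and TAP2 together pump the peptides into the endoplasmic reticulum, where chaperones load them onto a heavy chain bound to β2-microglobulin, the product of B2M. NLRC5 acts with the RFX factors, CREB family members and NF-Y at a shared promoter module of these genes, whose boxes are called W/S, X1, X2 and Y. Interferon gamma raises them through factors such as IRF1, which bind GAS and interferon-stimulated response element (ISRE) sequences.

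The stretches of reference promoter shown next hold word matches to some of these elements and belong to genes whose values are described afterwards. They come from RefSeq (GRCh38.p14) and are not the alleles of Hep3B. Each is written 5′ to 3′ on the strand of its gene. Capitals mark matches to the ISRE core GAAANNGAA, the X2 core TGACGC or CCAAT, the NF-Y box, on either strand. In B2M the matches to the ISRE core begin 144 and 138 bases before the start and overlap each other. The stretches are B2M at chr15:44711347-44711486 (+), HLA-B at chr6:31357220-31357369 (-), HLA-C at chr6:31272133-31272284 (-), TAP2 at chr6:32838760-32838809 (-) and PSMB10, the subunit gene outside the MHC, at chr16:67936841-67936890 (-).
B2M: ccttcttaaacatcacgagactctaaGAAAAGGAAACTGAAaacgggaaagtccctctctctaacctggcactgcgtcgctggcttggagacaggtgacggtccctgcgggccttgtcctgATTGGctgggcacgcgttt
HLA-B: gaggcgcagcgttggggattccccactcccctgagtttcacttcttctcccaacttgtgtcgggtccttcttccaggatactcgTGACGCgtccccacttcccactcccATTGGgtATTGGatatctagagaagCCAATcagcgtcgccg
HLA-C: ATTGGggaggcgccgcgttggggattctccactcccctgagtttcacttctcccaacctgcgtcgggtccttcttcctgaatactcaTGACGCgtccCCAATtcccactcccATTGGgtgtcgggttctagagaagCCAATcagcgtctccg
TAP2: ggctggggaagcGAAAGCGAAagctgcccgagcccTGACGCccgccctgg
PSMB10: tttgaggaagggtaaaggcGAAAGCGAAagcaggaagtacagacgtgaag

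Windows from 250 bases before to 50 after the start were searched for these motifs and for the GAS sequence TTCNNNGAA, and 7 of the 9 genes matched a window by symbol, HLA-E and NLRC5 having none. The ISRE core was found in the windows of B2M, TAP2, 1 of 2 windows of TAP1 and 1 of 2 windows of PSMB8, and in 8.11% of all 35116 windows. The X2 core was found in HLA-B, 106 bases before the start, in HLA-C, 105 bases before it, and in TAP2, 35 bases before it, against 9.14% of all windows. PSMB9 had a CCAAT match 243 bases before its start and none of the other motifs. CCAAT was found in 34.6% of all windows and the GAS sequence in 7.66%, so single matches of these short words are frequent. GAS matches lay in 1 window each of TAP1 and PSMB8. Only these exact words were searched, so a window without a match can still hold a variant of the element.

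How the tables were counted limits most of these genes. Genome build hg19 holds alternative haplotypes of the MHC beside the primary chromosome 6, and the deposited tables count each gene's exons on all of them. B2M and NLRC5 have exons on 1 sequence, HLA-B on 6, HLA-C and HLA-E on 7, and TAP1, TAP2, PSMB8 and PSMB9 on 8. Reads per kilobase of exon and per 1000000 reads (RPKM) had a median of 0.0685 over the 239 genes with haplotype exons and of 1.52 over the 22934 genes on 1 sequence. Of the former, 17.2% reached 1 RPKM, against 52.9% of the latter. RPS18, an MHC gene of the small ribosomal subunit looked at after its values were seen, has exons on 6 sequences and had 11.5 RPKM, against a median of 578 over 83 ribosomal protein genes. The tables were made with a minimum mapping quality of 2. Its part in these low levels was not tested, and the levels of the 7 MHC members are given as the tables hold them. The plot of levels by number of sequences shows where each member lies.

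**Figure D1:**
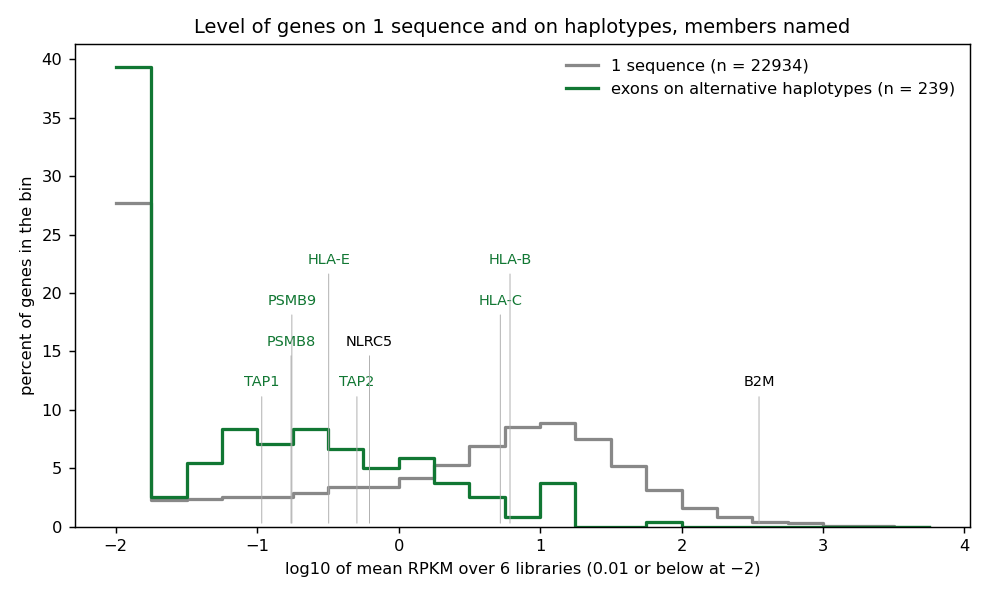
Distribution of mean RPKM over the 6 libraries (log10 axis, genes at 0.01 RPKM or below drawn at the left edge) for 22934 genes on 1 sequence (grey) and 239 genes with exons on alternative haplotypes (green), as percent of each set. Lines mark the 9 class I presentation genes at their mean level, green for those with haplotype exons: HLA-B and HLA-C lie near the top of the green distribution and TAP1, PSMB8 and PSMB9 within its low part, while B2M lies far to the right.

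Of the 9 genes, 6 had enough reads for the test. B2M, HLA-B, TAP2 and NLRC5 rose in the libraries labelled PELP1-KD, HLA-C fell, and HLA-E did not pass. A gene was called at an adjusted p below 0.05. Over all 14537 tested genes 53.6% were called, 26.8% higher and 26.8% lower, so a call by itself is common in this comparison. TAP2 and NLRC5 also passed a 2-fold change, which 7.65% of tested genes did. The median log2 fold change was 0.40 over the 6 tested members and 0.00 over all tested genes. The members were chosen with earlier results of these data known, so these medians are a description. Of the 94 tested genes with haplotype exons 36.2% were called, 10 of them higher and 24 lower, and their median SE was 0.288 against 0.0629 for genes on 1 sequence. Over all tested genes the libraries did not overlap between the groups in 58.8%.

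**Figure D2:**
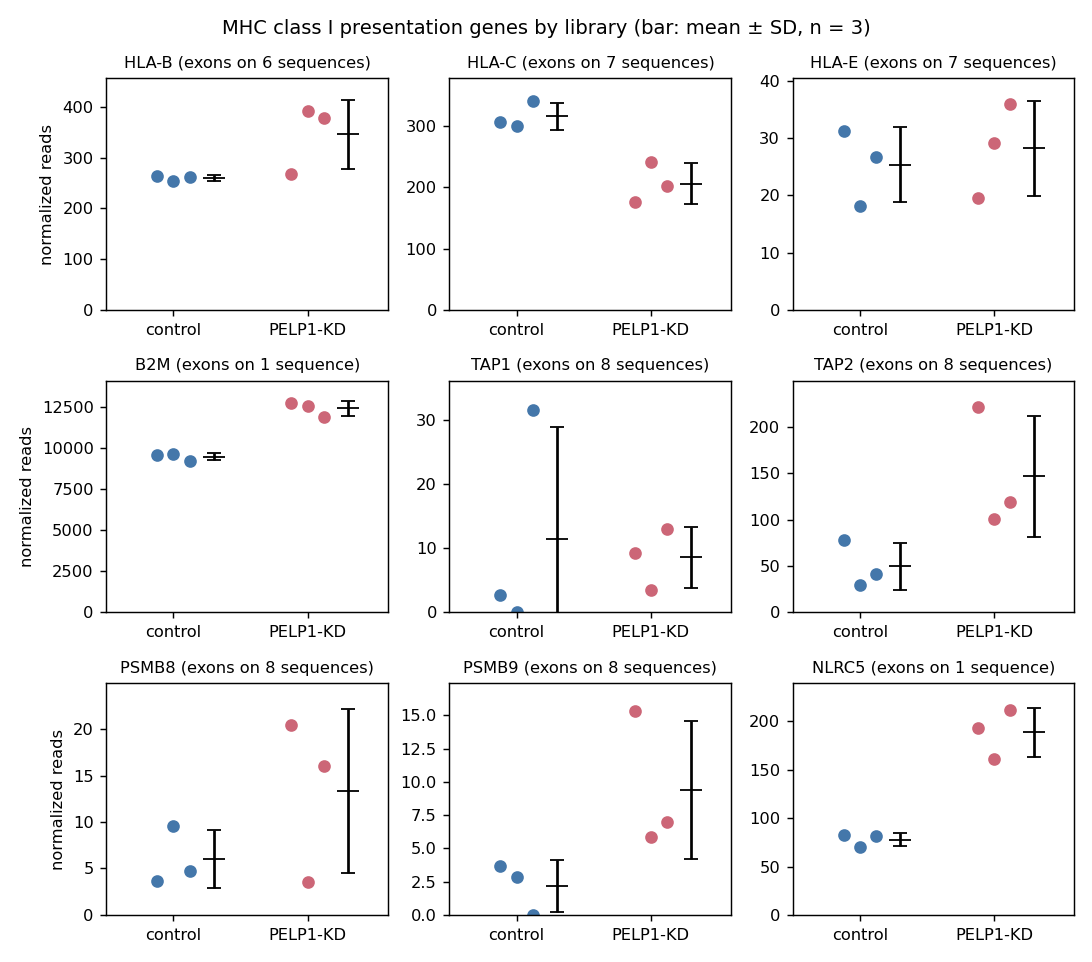
Normalized reads (vertical axes, each from 0) of the 9 genes in the 3 control (blue) and 3 PELP1-KD (red) libraries, ordered by replicate number within a group, with the mean ± SD (n = 3) beside the points; the lower arm for TAP1 in control is cut at 0. B2M and NLRC5 separate the groups with a small spread, HLA-C is lower in each PELP1-KD library, and TAP1, PSMB8 and PSMB9 rest on few reads.

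B2M encodes β2-microglobulin, the chain that all class I molecules share, and had the most reads of the 9 genes. It lies on chromosome 15 (hg19 chr15:45003685-45010357, + strand), outside the MHC. Normalized reads were 9578, 9644 and 9213 in control replicates 1 to 3 and 12748, 12563 and 11903 in PELP1-KD. The lowest PELP1-KD library lay well above the highest control library. The means were 9478 ± 232 and 12405 ± 444 (SD, n = 3), a log2 fold change of 0.39 (SE 0.03, 95% interval 0.32 to 0.46, edgeR adjusted p = 1.42e-08).

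NLRC5, the transactivator of class I genes, lies on chromosome 16 (hg19 chr16:57023410-57117436, + strand). It had 82.5, 70.0 and 81.1 normalized reads in control and 193, 161 and 212 in PELP1-KD. Each PELP1-KD value was far above the highest control value. From 77.9 ± 6.86 to 189 ± 25.7 (SD, n = 3), the log2 fold change was 1.28 (SE 0.13, 95% interval 1.00 to 1.56, edgeR adjusted p = 1.16e-07). All of its reads were deposited as whole numbers, from 73 to 90 in control and from 138 to 212 in PELP1-KD, and its exons lie on 1 sequence.

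HLA-B and HLA-C are neighbouring genes of the polymorphic heavy chains that present peptides to T cells. Their fold changes had opposite signs. HLA-B (hg19 chr6:31321649-31324989, - strand) had 264, 253 and 261 normalized reads in control and 267, 392 and 378 in PELP1-KD. PELP1-KD replicate 1 stood just above control and the other two well above it. The means were 259 ± 5.73 and 346 ± 68.3 (SD, n = 3), with a log2 fold change of 0.41 (SE 0.11, 95% interval 0.18 to 0.64, edgeR adjusted p = 0.00437).

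HLA-C (hg19 chr6:31236526-31239913, - strand) had 306, 300 and 341 normalized reads in control and 175, 240 and 202 in PELP1-KD. All PELP1-KD libraries lay below all control libraries. The means were 316 ± 21.8 and 206 ± 32.8 (SD, n = 3), with a log2 fold change of -0.62 (SE 0.10, 95% interval -0.84 to -0.40, edgeR adjusted p = 4.57e-05). HLA-C reads were thus 1.16, 1.19 and 1.30 times those of HLA-B in control and 0.655, 0.613 and 0.534 times in PELP1-KD, a ratio formed within each library that the scaling of libraries does not touch. The counts of both genes were fractional in all 6 libraries, since a read that fits several places or genes was shared out. Heavy chain genes are closely alike in sequence, and how reads were divided between them was not tested.

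HLA-E presents leader peptides of other heavy chains to receptors on natural killer cells (hg19 chr6:30457183-30461982, + strand). It had 31.2, 18.2 and 26.7 normalized reads in control and 19.5, 29.2 and 36.0 in PELP1-KD. The groups overlapped. Its log2 fold change of 0.15 (SE 0.29, 95% interval -0.45 to 0.75, edgeR adjusted p = 0.683) leaves room for a moderate change in either direction. Counting error alone, from 81 reads in control and 80 in PELP1-KD, gives a ratio of 1.11 with an exact 95% interval of 0.804 to 1.53.

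HLA-H, a pseudogene among the heavy chain genes, has exons on 8 sequences. It had 706, 670 and 751 normalized reads in control and 950, 930 and 1124 in PELP1-KD, with a log2 fold change of 0.50 (edgeR adjusted p = 5.85e-06). HLA-F had from 1.0 to 4.8 normalized reads and was not tested.

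TAP1 and TAP2, the subunits of the peptide pump, lie with PSMB8 and PSMB9 in a compact cluster of the class II region. On hg19, 273 bases separate PSMB8 from TAP1, 189 separate TAP1 from PSMB9 and 1946 separate TAP2 from PSMB8. TAP2 (chr6:32789610-32806547, - strand) had 77.9, 29.7 and 41.0 normalized reads in control and 221, 100 and 119 in PELP1-KD. Replicate 1 was the highest of its group on both sides, and the groups did not overlap. The means were 49.6 ± 25.2 and 147 ± 65.1 (SD, n = 3), a log2 fold change of 1.56 (SE 0.49, 95% interval 0.29 to 2.84) that just passed the test (edgeR adjusted p = 0.0479). The call was lost without control replicate 2 (adjusted p = 0.1003), without control replicate 3 (0.148) and without PELP1-KD replicate 3 (0.109). With the replicate number as a block in the edgeR fit, it had a log2 fold change of 1.57 and an adjusted p of 2.5e-10. Whether same-numbered libraries are pairs was not established, so this value does not settle the call.

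TAP1 (chr6:32812986-32821748, - strand) was too low for the test. The deposited estimated counts were 3, 0 and 33 in control and 8.8, 3 and 13 in PELP1-KD, so that 1 library held nearly all control reads. The ratio of PELP1-KD to control reads was 0.780, with an exact 95% interval of 0.449 to 1.34 for counting error. Its direction could not be read from these tables.

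PSMB8 replaces PSMB5 and PSMB9 replaces PSMB6 in the immunoproteasome, and both were too low for the test. PSMB8 (chr6:32808494-32812712, - strand) had 4, 10 and 5 deposited reads in control and 20, 3 and 16 in PELP1-KD. PELP1-KD replicate 2 was the lowest of all 6 libraries, so the groups overlapped. Summed reads were 19 and 39, and their ratio was 2.30 with an exact 95% interval of 1.30 to 4.22. With no filter on low counts the log2 fold change was 1.18 (edgeR adjusted p = 0.0524).

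PSMB9 (chr6:32821938-32827628, + strand) had 4, 3.2 and 0 deposited reads in control and 15, 5 and 7.2 in PELP1-KD. Each PELP1-KD library lay above each control library, though by few reads. Rounded reads summed to 7 and 27, with a ratio of 4.33 and an exact 95% interval of 1.84 to 11.8. With no filter the log2 fold change was 2.05 (edgeR adjusted p = 0.00935), and DESeq2 gave 2.10 (adjusted p = 0.0549). These intervals cover counting error only, and not the spread between libraries.

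Per kilobase, B2M stood far above the other members in both groups. In control its level was 306 ± 7.48 RPKM (SD, n = 3), followed by HLA-C at 6.33 ± 0.438 and HLA-B at 5.25 ± 0.116, and the libraries of these 3 genes did not overlap. NLRC5 followed at 0.363 RPKM, then HLA-E at 0.303, TAP2 at 0.256, TAP1 at 0.123, PSMB8 at 0.108 and PSMB9 at 0.0662, and from NLRC5 downwards each gene overlapped its neighbour in this order. In PELP1-KD, B2M was at 400 ± 14.3 RPKM, HLA-B at 6.996 ± 1.38 and HLA-C at 4.13 ± 0.659, so that HLA-B and HLA-C changed places without overlap. NLRC5 at 0.880 RPKM and TAP2 at 0.758 overlapped each other and lay above HLA-E at 0.337. PSMB9 at 0.285, PSMB8 at 0.239 and TAP1 at 0.0923 again overlapped their neighbours. Levels of the MHC genes against B2M or NLRC5 carry the counting limit given above.

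PSMB10, the third immunoproteasome subunit, lies outside the MHC and has exons on 1 sequence, so its reads are free of the haplotype limit. It had 581, 609 and 624 normalized reads in control and 1118, 1242 and 1295 in PELP1-KD. Its lowest PELP1-KD value was far above the highest control value, with a log2 fold change of 1.01 (SE 0.06, edgeR adjusted p = 4.67e-11). PSMB7, the constitutive subunit it replaces, had a log2 fold change of 0.10 (adjusted p = 0.0238). Within libraries, PSMB10 per kilobase was 8.50, 8.85 and 9.19% of PSMB7 in control and 15.6, 17.0 and 17.4% in PELP1-KD, 1.88 times as much on average. In a two-sided exact permutation test over libraries this gave p = 0.1, the smallest that 3 against 3 libraries allow, and 0.167 after adjustment over the 5 ratios tested.

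The other ratios had few reads above the line. PSMB9 per kilobase was 0.0489, 0.0412 and 0% of PSMB6 in control and 0.213, 0.0814 and 0.0936% in PELP1-KD (exact p = 0.1, adjusted 0.167). PSMB8 per kilobase was 0.0518, 0.136 and 0.0681% of PSMB5 in control and 0.317, 0.0546 and 0.242% in PELP1-KD, with overlap (exact p = 0.3, adjusted 0.375). TAP1 per kilobase was 7.37, 0 and 160% of TAP2 in control and 8.70, 7.29 and 22.8% in PELP1-KD (exact p = 0.9). The control mean of TAP1 over TAP2 rests on replicate 3, without which the PELP1-KD ratio was 3.51 times the control ratio in place of 0.231 times. HLA-B, HLA-C and HLA-E summed per kilobase were 3.84, 3.65 and 4.19% of B2M in control and 2.23, 3.24 and 3.16% in PELP1-KD (exact p = 0.1, adjusted 0.167).

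**Figure D3:**
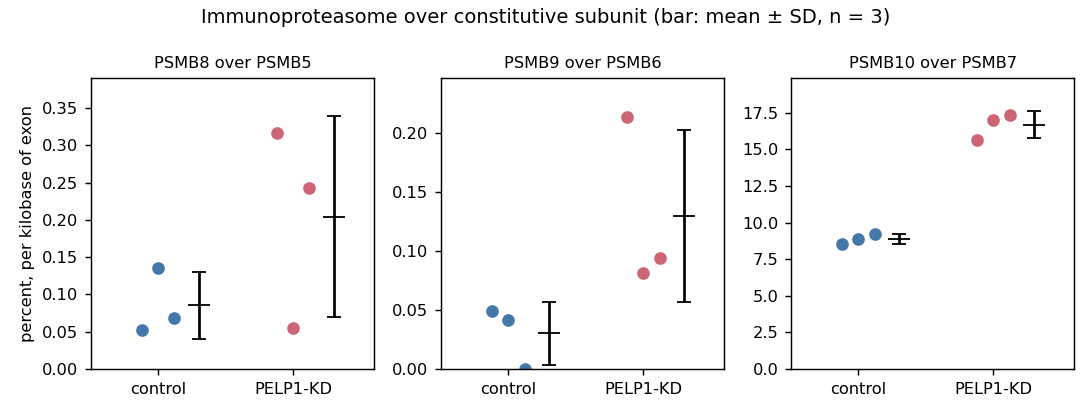
Immunoproteasome subunit over the constitutive subunit it replaces, within each library, in percent of reads per kilobase of exon (vertical axes, each from 0), for 3 control (blue) and 3 PELP1-KD (red) libraries with the mean ± SD (n = 3). PSMB10 over PSMB7 moves from 8.50 to 9.19% in control to 15.6 to 17.4% in PELP1-KD, while the ratios of PSMB8 and PSMB9 stay below 0.4% on axes of their own.

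The proteasome list, which includes PSMB7 and PSMB10, held 9 genes, all tested, of which 5 rose, 2 fell and 2 did not pass. Counts of this and the following lists stand beside 26.8% higher and 26.8% lower over all tested genes. PSME1 and PSME2, the subunits of the PA28 activator that opens the proteasome, rose. PSME1 had 3108, 3030 and 3177 normalized reads in control and 4048, 4255 and 4178 in PELP1-KD (log2 fold change 0.42, edgeR adjusted p = 2.3e-08). PSME2 had 2621, 2693 and 2534 against 3325, 3237 and 3418 (0.35, adjusted p = 6.94e-07). The constitutive subunits moved little, PSMB5 by -0.12 on the log2 scale (adjusted p = 0.00817) and PSMB6 by 0.00 (adjusted p = 0.972). POMP, a chaperone of proteasome assembly that is needed for immunoproteasomes, fell from 3309 ± 152 to 2004 ± 79.0 normalized reads (SD, n = 3), a log2 fold change of -0.72 (adjusted p = 6.63e-11).

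Among 18 genes of peptide loading and trimming, all tested, 3 rose, 7 fell and 8 did not pass. ERAP1, the aminopeptidase that trims peptides in the endoplasmic reticulum, had 2247, 2230 and 2332 normalized reads in control and 3547, 3281 and 3308 in PELP1-KD (log2 fold change 0.57, edgeR adjusted p = 9.46e-10). TAPBPL, a peptide editor related to tapasin, had 357, 369 and 379 against 654, 694 and 720 (0.90, adjusted p = 1.14e-09). TAPBP, tapasin itself, has exons on 5 sequences and reached 0.33 (SE 0.16), which did not pass (adjusted p = 0.0839). HSPA5, a general chaperone of this compartment, fell by 0.33 on the log2 scale (adjusted p = 5.55e-09) and CALR, a part of the loading complex, by 0.20 (adjusted p = 5.71e-06). The median over the list was -0.05.

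The list of heavy chains and class I-like genes held 18 genes, of which 11 were tested, 5 rose, 3 fell and 3 did not pass. MR1, which presents vitamin B metabolites to mucosal-associated invariant T cells, had 166, 154 and 171 normalized reads in control and 401, 377 and 379 in PELP1-KD. All PELP1-KD libraries were more than 2-fold above all control libraries, and the log2 fold change was 1.24 (SE 0.09, edgeR adjusted p = 3.17e-10). FCGRT, the heavy chain of the neonatal Fc receptor, also pairs with β2-microglobulin and fell from 4026 ± 107 to 3168 ± 146 (log2 fold change -0.35, adjusted p = 9.87e-07). Of 24 transcription factors and chromatin regulators linked to class I genes, all tested, 9 rose, 5 fell and 10 did not pass. IRF1 had the smallest p of them, with 1071, 1045 and 1079 normalized reads in control and 2609, 2532 and 2726 in PELP1-KD. The spread within either group was small beside the difference, and the log2 fold change was 1.30 (SE 0.05, edgeR adjusted p = 9.34e-15). NFKB2, a subunit of NF-κB, rose by 0.51 on the log2 scale (adjusted p = 3.38e-08).

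The partners of NLRC5 at the promoter module went the other way or did not pass. RFX5 fell by 0.37 on the log2 scale (adjusted p = 8.71e-06), while RFXAP at -0.19 and RFXANK at -0.07 did not pass (adjusted p = 0.338 and 0.221). NFYA, a subunit of NF-Y, had 3079, 3042 and 3053 normalized reads in control and 1864, 1851 and 1827 in PELP1-KD, a log2 fold change of -0.73 (SE 0.04, edgeR adjusted p = 8.24e-12). EZH2, the methyltransferase of the polycomb complex that silences class I genes in some tumours, was at 2364 ± 39.0 and 2366 ± 20.9 normalized reads, with a log2 fold change of 0.00 (adjusted p = 0.981).

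Of 21 genes of interferon gamma signaling, 18 were tested, 11 rose, 2 fell and 5 did not pass. Over all tested genes 26.8% rose and 26.8% fell. Of the 11 that rose, 4 were past 2-fold, beside 415 higher and 697 lower of all 14537 tested genes. The receptor chains did not rise: IFNGR1 was at 0.05 on the log2 scale (adjusted p = 0.387), and IFNGR2 fell by 0.31 (adjusted p = 2e-05). The kinases bound to them rose, JAK1 by 0.46 (adjusted p = 8.27e-10) and JAK2 by 0.70 (adjusted p = 9.22e-07). The guanylate-binding proteins, GTPases induced by interferon gamma, had the smallest p of the list. GBP1 had 284, 266 and 254 normalized reads in control and 778, 751 and 799 in PELP1-KD (log2 fold change 1.53, edgeR adjusted p = 5.45e-13). GBP2 had 335, 350 and 336 against 818, 842 and 834 (1.29, adjusted p = 1.96e-12), and GBP3 had 109, 152 and 109 against 406, 453 and 403 (1.77, adjusted p = 7.27e-11).

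Class II molecules present outside antigens on specialised immune cells. Of 14 listed genes 2 were tested, and 9 have exons on haplotypes. CD74, the invariant chain of class II molecules, had 259, 277 and 258 normalized reads in control and 74.7, 98.0 and 92.9 in PELP1-KD, a log2 fold change of -1.58 (SE 0.12, edgeR adjusted p = 5.9e-10). CTSS, a protease that degrades this chain, rose by 0.89 (adjusted p = 1.31e-11). CIITA, the class II relative of NLRC5, was listed at 0 in all 6 libraries.

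Over the 6 lists together, 82 of 104 genes were tested, 34 rose, 20 fell and 28 did not pass, with a median log2 fold change of 0.06. Restricted to genes on 1 sequence, 32 of 76 rose and 19 fell. The shares in each direction can be read against the 26.8% higher and 26.8% lower over all tested genes. Past 2-fold, 8 rose and 1 fell, beside 415 higher and 697 lower of all 14537 tested genes. The lists were drawn up with earlier results of these data known, so their counts are a description.

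**Figure D4:**
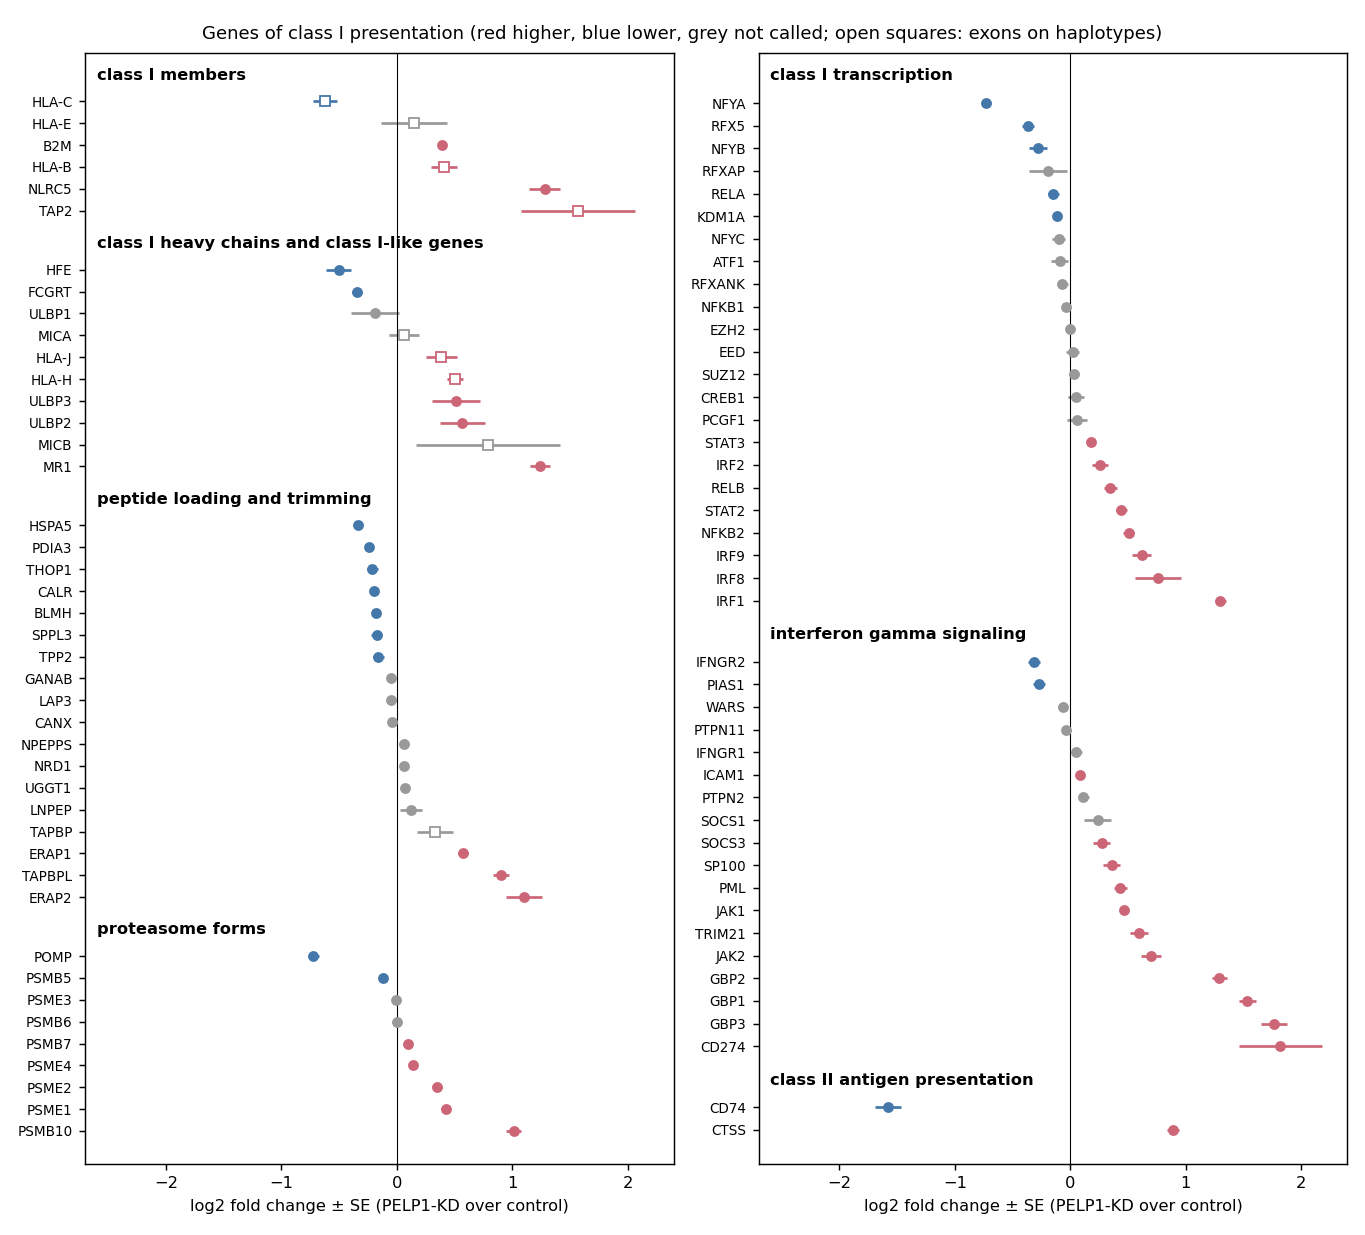
Log2 fold change ± SE (horizontal axis, PELP1-KD over control, edgeR) of the tested class I presentation genes and of tested genes of the 6 pathway lists, red for called higher, blue for called lower and grey for not called, with open squares for genes that have exons on alternative haplotypes; not every tested gene of the lists is drawn. NLRC5, IRF1, PSMB10, MR1 and the guanylate-binding protein genes lie at 1 or above, while HLA-C, POMP, NFYA and CD74 lie at -0.6 or below.

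Within 1 Mb of the outermost chromosome 6 members lay 194 other genes, of which 77 were tested, 8 rose (10.4%), 20 fell (26.0%) and 49 did not pass, beside 26.8% in each direction over all tested genes. With 2-fold as a second threshold 2 rose and 13 fell, beside 415 higher and 697 lower of all 14537 tested genes. Some of these genes share all their reads and have identical values; taking each such set once, 17 of 74 fell, 10 of them past 2-fold. Their median level was 0.0734 RPKM and their median log2 fold change was -0.04. Nearly all of them, 184 of 194, have haplotype exons, so the neighbourhood shares the counting limit of the members.

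The genes most like B2M and NLRC5 across the 6 libraries were sought among 10232 tested genes with a mean log2 CPM of at least 3, by the root mean square difference of centred log2 CPM. For B2M these were TDRD7 (0.0164), SERTAD2 (0.0176) and CAMK2N1 (0.0182). For NLRC5, whose edgeR log2 CPM of 2.08 lay below that minimum, they were S100A11 (0.0866), SLC1A3 (0.0995) and WNT11 (0.102). Whether the few reads of NLRC5 enlarge these differences was not tested. TAP1 was not tested and has no such pattern.

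Hepatocyte markers were abundant. Of 9 hepatocyte or Hep3B markers all were tested, 2 rose (AFP and FGB) and 7 fell, and their summed normalized reads ran from 900576 to 915741 in control and from 794548 to 811428 in PELP1-KD. Leukocytes express class I genes strongly. Of 11 leukocyte markers 7 stayed under 10 normalized reads in every library, and MS4A1, a marker of B cells, was at 0 in all. The summed leukocyte markers ran from 5682 to 6028 in control and from 3464 to 3560 in PELP1-KD. Most of these reads were of LYZ, which fell from a mean of 4264 to 1458, and of CD68, which rose from 1381 to 1927; CD14 fell as well, from 176 to 89.0. Endothelial markers summed to 63.0 to 72.8 and 60.7 to 67.6, with CDH5 and KDR at 0. Fibroblast markers summed to 479 to 541 and 687 to 744, with LUM higher and PDGFRB lower. In such bulk RNA, fewer cells that express a gene and less RNA per cell cannot be told apart. The libraries held from 26758363 to 34456542 reads on genes.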

How the data were processed

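RNA-seq of Hep3B cells was analysed in 3 control libraries and 3 libraries labelled PELP1-KD, grouped by their labels. The paper's methods name TopHat2 and HTSeq on hg19, whereas the submitters' processing notes list HISAT2, SAMtools and featureCounts. The table headers give featureCounts 1.5.0-p1, run by strand on read pairs with a minimum mapping quality of 2, and with reads that fit several places or genes shared out as fractions. What the authors deposited are therefore estimated counts, not normalized. Different labels name different RNA extraction kits, library kits (mRNA selection or removal of ribosomal RNA) and read layouts (single or paired).

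Estimated counts were rounded, filtered with filterByExpr and fitted with edgeR 4.0.16 (TMM, glmQLFit with robust estimation, glmQLFTest, R 4.3.3), with Benjamini-Hochberg adjustment over 14537 genes. SE was taken as the size of the log2 fold change divided by √F, and intervals use edgeR's degrees of freedom. Normalized reads are reads divided by the library's TMM-scaled size, with sizes set to a geometric mean of 1. RPKM uses merged exon bases on the primary chromosome. Coordinates of genes are those of the hg19 tables, and promoters are RefSeq windows of GRCh38.p14. Intervals of read ratios are exact binomial and assume independent reads. At this depth the median SE of a log2 fold change was 0.063. The scripts were tested on simulated data.

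The members and lists were chosen with earlier results of these data known. All 9 members are named, of each list the called genes with the 3 smallest p, and a set of genes of the pathway whatever their values, some of which are counted in the lists but not reported here by name; for B2M, TAP1 and NLRC5, the 3 most alike genes were sought. Alternatives were other normalizations, DESeq2 1.42.0, other filters, unrounded counts, a 2-fold threshold, a replicate block, each library left out, the files' length column, other windows around the MHC members and only genes on 1 sequence.

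The labels give both groups replicate numbers 1 to 3. Over 6370 genes, deviations from the group means correlated between same-numbered libraries at 0.336, 0.247 and 0.666 for replicates 1 to 3. Libraries with different numbers reached 0.418 (PELP1-KD replicate 1 against control replicate 2), above the values for replicates 1 and 2. These correlations therefore do not establish that the numbers mark pairs. The replicate block was used only as an alternative to the main fit. Genes are not independent replicates.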

Additional observations from a re-analysis of the deposited data

How the results depend on the processing

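All 6 tested members kept their direction under each alternative except HLA-E, which was not called under any and ranged from -0.08 to 0.36 on the log2 scale. The called members HLA-B, HLA-C, B2M and NLRC5 stayed called wherever they were tested. TAP2 was not called with upper-quartile normalization (log2 fold change 1.56, adjusted p = 0.0512), with no filter (1.57, 0.0832), or without control replicate 2, control replicate 3 or PELP1-KD replicate 3 (1.30, 1.45 and 1.70). The cause was not tested beyond the loss of a library. Of 5 called members, 3 were left with a minimum of 1 RPKM, which removes the low genes, and 2 with a 2-fold threshold. The 2-fold threshold left 8 list genes higher and 1 lower in place of 34 and 20. With the replicate block, 5 members, 36 list genes higher and 23 lower were called, and the block changed no member's call.

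With libraries left out in turn, called members ranged from 4 to 6, list genes higher from 30 to 36 and lower from 18 to 22. TAP1 over TAP2 (PELP1-KD over control) ranged from 0.143 to 3.51, the highest without control replicate 3. The same fold ranged from 1.74 to 3.41 for PSMB8 over PSMB5, from 2.87 to 6.28 for PSMB9 over PSMB6, from 1.85 to 1.94 for PSMB10 over PSMB7 and from 0.691 to 0.821 for HLA-B, HLA-C and HLA-E over B2M. With the length column of the tables, which adds up the haplotype copies, the control ratio was 0.0107% in place of 0.0852% for PSMB8 over PSMB5, 0.00375% in place of 0.0300% for PSMB9 over PSMB6 and 0.599% in place of 3.89% for heavy chains over B2M. Within 0.5 Mb of the MHC members 4 neighbours rose and 16 fell, and within 2 Mb 8 and 26. Without the filter PSMB9 was called, and PSMB8 was called without control replicate 2 (adjusted p = 0.0414) or PELP1-KD replicate 2 (0.00965). Few reads limit HLA-E, TAP1, PSMB8 and PSMB9.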
